A study of Homo sapiens with 6 samples.

Results

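The 9 keratin genes described here were KRT8, KRT18, KRT7, KRT19, KRT80, KRT15, KRT10, KRT17 and KRT23, taken by gene symbol from a table of 63186 gene rows. They were followed in RBE, an established human cell line from an intrahepatic cholangiocarcinoma, the cancer that arises in bile ducts inside the liver. The knockdown group, si-CHAF1A, was RBE cells given siRNA against CHAF1A, and the comparison group, si-Ctrl, was RBE cells given a control siRNA. Both were transfected with Lipofectamine 3000 at about 60% confluency, received fresh medium after 24 h and were harvested after 48 h, with 3 libraries in each group. CHAF1A encodes the largest protein of the chromatin assembly factor CAF-1, which loads histones onto freshly copied DNA, and the comparison asks which transcripts differ once it is depleted.

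Keratins build the intermediate filaments of epithelial cells. A filament needs equal parts of an acidic type I keratin and a basic type II keratin, which wind around each other as a heterodimer, and cells of different epithelia use different partners. KRT8 (type II) and KRT18 (type I) form the basic pair of simple epithelia, hepatocytes included. Bile duct cells add KRT7 (type II) and KRT19 (type I), which pathologists use to tell cholangiocarcinoma from hepatocellular cancer. KRT15 and KRT17 (both type I) belong to basal cells of stratified epithelia and, for KRT17, to injured and proliferating epidermis. KRT10 (type I) is the keratin of the differentiating layers of the epidermis. KRT80 is a type II keratin found in many epithelia, and KRT23 is a divergent type I keratin.

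All 9 genes lie in the keratin clusters of chromosomes 12 and 17 (GRCh38, GENCODE 29 annotation). On chromosome 12, KRT80 spans chr12:52168996-52192000 on the minus strand, KRT7 chr12:52232520-52252186 on the plus strand, KRT8 chr12:52897187-52949954 on the minus strand and KRT18 chr12:52948871-52952901 on the plus strand. On chromosome 17, all on the minus strand, lie KRT10 at chr17:40818117-40822595, KRT23 at chr17:40922696-40937634, KRT15 at chr17:41513743-41522529, KRT19 at chr17:41523617-41528308 and KRT17 at chr17:41619441-41624842. KRT18 is thus the only type I gene of the 9 on chromosome 12, beside its partner KRT8. The annotated exons of KRT8 and KRT18 share 525 bp on opposite strands, 16.3% of the merged exon length of KRT18 and 7.63% of that of KRT8.

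The coding bases of the helix termination motif, the conserved stretch that closes the rod domain of every keratin, show how alike these genes are in the part they share and how the types differ. The bases are given on the coding strand from the GENCODE 29 transcripts. Capitals mark bases that differ from KRT8 in the type II genes and from KRT19 in the type I genes, with the codon that only KRT18 has also in capitals.
KRT8: acctacaggaagctgctggagggcgag
KRT7: acctacCgCaagctgctggagggcgag
KRT80: acctacaggaagctgGtggagggcgag
KRT19: acctaccgcagcctgctcgagggacag
KRT15: acTtaccgcagcctgctcgagggCcag
KRT17: acctaccgcCgcctgctGgagggaGag
KRT10: acctaccgcagcctgctAgaAggaGag
KRT18: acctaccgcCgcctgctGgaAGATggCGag
KRT23: acGtaccgACgGctCctGgagggaGag
Against KRT19, 25 of 27 bases were the same in KRT15, 24 in KRT17 and in KRT10, and 20 in KRT23, the most divergent of these. Over the whole protein, translated from the same transcripts, KRT7 and KRT8 were 65.1% identical, KRT19 was 66.2% identical to KRT15 and to KRT17, and KRT23 was 44.2% identical to KRT19. KRT8 and its filament partner KRT18 were 33.7% identical. In spite of this likeness, the only stretches of 150 bases that the main transcript of any of the 9 genes had in common with another annotated gene lay in overlaps on the opposite strand. They made up 12.2% of such stretches in KRT18 (with KRT8) and 4.80% in KRT7 (with the antisense RNA KRT7-AS). Shorter stretches of 75 bases were shared more often, 19.2% in KRT8, 28.2% in KRT18 and 4.57% in KRT17, with genes that include their pseudogenes. In KRT7 9.05% were shared with KRT7-AS, and in KRT23 2.40% with an antisense gene. Whether counting kept the strands apart is not stated in the labels.

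The libraries held between 16564712 and 17601483 counts in si-CHAF1A and between 15643381 and 20918997 counts in si-Ctrl. CHAF1A itself averaged 11.7 ± 1.03 CPM in si-CHAF1A and 54.0 ± 4.91 CPM in si-Ctrl (SD, n = 3 each), 4.61-fold lower after knockdown (log2 fold change -2.21, SE 0.10, adjusted p = 2.57e-10, edgeR's quasi-likelihood test). CPM is a gene's count per 1000000 counts of the TMM-scaled library total. Of the 15911 genes with enough counts to be tested, 37.8% passed an adjusted p of 0.05 in that test, 18.5% as higher and 19.3% as lower in si-CHAF1A, and the 3 values of each group did not overlap for 48.2%. The median log2 fold change was 0.55 over all the higher genes and -0.43 over all the lower ones. One control library stood apart: si-Ctrl 2 scored -29.6 on the second principal component, against 14.95 and 13.9 for the other controls, and it was the highest control library for each of the 7 keratins tested below, so values without it are given with the results.

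After CHAF1A knockdown the simple keratins KRT8 and KRT18 and the biliary keratin KRT19 stood higher, KRT19 by the most. Of the 9 genes, 8 had counts in some library and 7 could be tested. In si-CHAF1A, KRT19, KRT15, KRT8, KRT18 and KRT80 were higher and KRT10 was lower, while KRT7 did not pass. The 6 calls among 7 genes stand against 37.8% of all genes tested, and the 5 keratins whose groups did not overlap against 48.2%. The median log2 fold change of the 7 was 0.34, and that of all genes tested was 0.00. Without si-Ctrl 2 all 7 passed, where 43.8% of all genes tested did, with log2 fold changes of 0.74 for KRT19, 0.54 for KRT15, 0.44 for KRT8 and 0.37 for KRT18, and of 0.29 for KRT7, 0.22 for KRT80 and -0.20 for KRT10.

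KRT19, the smallest keratin and the defining type I keratin of bile duct cells, had 1198, 1075 and 1089.7 CPM in si-CHAF1A 1, 2 and 3, against 656, 803 and 684 CPM in si-Ctrl 1, 2 and 3. Every knockdown library lay above every control library, and the gap was wider than the range within either group. The log2 fold change was 0.65 (SE 0.08, adjusted p = 7.54e-06, edgeR's quasi-likelihood test), a 1.57-fold higher level. It lay between 0.59 and 0.74 when each library was left out in turn and passed every time.

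KRT7, the type II keratin that marks the same cells, had 1133, 1069 and 1069.7 CPM in si-CHAF1A 1, 2 and 3, against 889, 1105 and 883 CPM in si-Ctrl 1, 2 and 3. The groups overlapped through si-Ctrl 2, which lay above 2 of the knockdown libraries, while the other 2 controls lay below all of them. The log2 fold change of 0.19 (SE 0.08, 95% interval 0.02 to 0.35, not adjusted for the number of genes) did not pass, with an adjusted p of 0.077 in edgeR's quasi-likelihood test. Without si-Ctrl 2 the adjusted p was 3.85e-09, in a fit where 43.8% of all genes passed. The controls left there, si-Ctrl 1 and 3, lay close together (889 and 883 CPM). That p rests on their small spread and is not comparable with that of the main fit. With any of the other libraries left out the gene did not pass, the lowest log2 fold change being 0.12.

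The balance of the 2 biliary keratins differed between the groups in all libraries. The count of KRT7 over that of KRT19 was 0.946, 0.995 and 0.982 in si-CHAF1A 1, 2 and 3, against 1.36, 1.38 and 1.29 in si-Ctrl 1, 2 and 3. The ratio was lower in every knockdown library than in any control library. On the log2 scale the ratio was -0.04 ± 0.04 in si-CHAF1A and 0.42 ± 0.05 in si-Ctrl (SD, n = 3 each), a difference of -0.46. A two-sided exact permutation test gave p = 0.1, the smallest it can give for 3 libraries against 3. This ratio does not depend on how libraries are scaled, and si-Ctrl 2 lay beside the other controls in it.

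KRT8, the type II keratin of all simple epithelia and the one with the most counts here, had 2398, 2128 and 2433 CPM in si-CHAF1A 1, 2 and 3, against 1688, 1944 and 1713 CPM in si-Ctrl 1, 2 and 3. The groups did not overlap, and the lowest knockdown library, si-CHAF1A 2, lay above the highest control, si-Ctrl 2. Its log2 fold change was 0.38 (SE 0.07, adjusted p = 0.000596, edgeR's quasi-likelihood test). KRT18, its partner, had 964, 904 and 1018 CPM in si-CHAF1A 1, 2 and 3, against 741, 792 and 741 CPM in si-Ctrl 1, 2 and 3. Again no control library reached a knockdown library. For KRT18 the log2 fold change was 0.34 (SE 0.06, adjusted p = 0.00048, edgeR's quasi-likelihood test).

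The balance of these 2 partners did not separate the groups. The count of KRT8 over that of KRT18 was 2.49, 2.35 and 2.39 in si-CHAF1A 1, 2 and 3, against 2.28, 2.45 and 2.31 in si-Ctrl 1, 2 and 3. These ranges overlapped. The difference on the log2 scale was 0.04 (1.27 ± 0.04 in si-CHAF1A and 1.23 ± 0.06 in si-Ctrl, SD, n = 3 each), with p = 0.4 in a two-sided exact permutation test whose smallest possible p is 0.1. Reads from the 525 bp that the 2 genes share on opposite strands could fall to either gene or to neither if strands were not told apart.

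**Figure D1:**
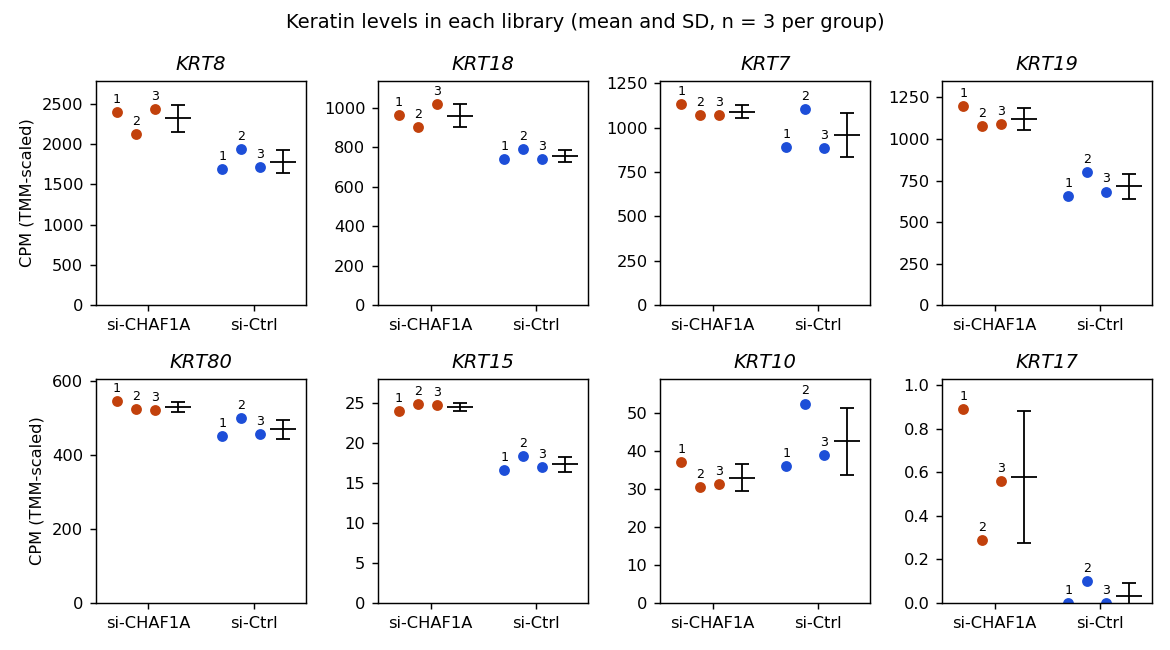
Level of each keratin in every library, in TMM-scaled CPM on linear axes that start at 0, with library numbers over the points and the mean and SD (n = 3) beside them; KRT23, with no count, is not drawn. Knockdown libraries lie above all controls for KRT8, KRT18, KRT19, KRT80, KRT15 and the sparse KRT17, si-Ctrl 2 reaches into the knockdown range for KRT7, and for KRT10 the controls reach higher, up to 52.5 CPM in si-Ctrl 2.

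KRT80, a type II keratin, had 546, 523 and 522 CPM in si-CHAF1A 1, 2 and 3, against 451, 499 and 458 CPM in si-Ctrl 1, 2 and 3. The groups did not overlap, but the step was small. Its log2 fold change was 0.18 (SE 0.06, 1.13-fold, adjusted p = 0.0331, edgeR's quasi-likelihood test). The call was lost when any library other than si-Ctrl 2 was left out (log2 fold change 0.15 to 0.19, adjusted p 0.084 to 0.15). Without si-Ctrl 2 the log2 fold change was 0.22 with an adjusted p of 5.03e-06. The controls left in that fit, si-Ctrl 1 and 3, lay close together (451 and 458 CPM), and 43.8% of all genes passed. In the same test the call was also lost without the filter on low counts (adjusted p 0.10) and with the replicate number as a block (0.080).

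KRT15, a basal-cell keratin, was expressed far below the simple keratins, with 24.0, 24.9 and 24.8 CPM in si-CHAF1A 1, 2 and 3, against 16.6, 18.4 and 17.0 CPM in si-Ctrl 1, 2 and 3. Knockdown libraries were closely alike and all above the controls. The log2 fold change of 0.50 (SE 0.09, 1.42-fold, adjusted p = 0.000446, edgeR's quasi-likelihood test) was the second largest of the 7. KRT15 lies next to KRT19 on chromosome 17, on the same strand, and their main transcripts share no stretch of 75 bases.

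KRT10, the keratin of differentiating epidermis, was the one member with a lower level, at 37.1, 30.5 and 31.3 CPM in si-CHAF1A 1, 2 and 3, against 36.1, 52.5 and 39.1 CPM in si-Ctrl 1, 2 and 3. The groups overlapped, since si-CHAF1A 1 lay above si-Ctrl 1, and si-Ctrl 2 stood well above every other library. The log2 fold change was -0.37 (SE 0.12, adjusted p = 0.0247, edgeR's quasi-likelihood test). Without si-Ctrl 2 it was -0.20 (adjusted p = 0.045), and the call was lost without si-CHAF1A 2 (-0.32, adjusted p = 0.126) or si-CHAF1A 3 (-0.34, adjusted p = 0.104).

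KRT17, the injury-associated keratin, was nearly silent and too sparse for the test, yet its few reads fell on 1 side. It had 15, 5 and 10 counts in si-CHAF1A 1, 2 and 3, against 0, 2 and 0 counts in si-Ctrl 1, 2 and 3. No control library reached a knockdown library. The 30 counts against 2, scaled for library size, gave a ratio of 15.2 with an exact 95% interval of 3.87 to 132, which covers counting error only. Fitted without the filter on low counts, edgeR's quasi-likelihood test gave an adjusted p of 0.000474, and DESeq2 gave 0.016. In that unfiltered fit 17.2% of 35659 genes passed, and in DESeq2 27.9% of 18367. The unfiltered fit also gave KRT19 an adjusted p of 3.51e-17 and KRT80 one of 0.10, so its values are not comparable with those of the main fit. KRT23 had 0 counts in every library. Taking 3 counts as the limit that 0 allows, its level was at most 0.151 to 0.192 CPM in a single library and 0.0285 CPM over all 6.

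**Figure D2:**
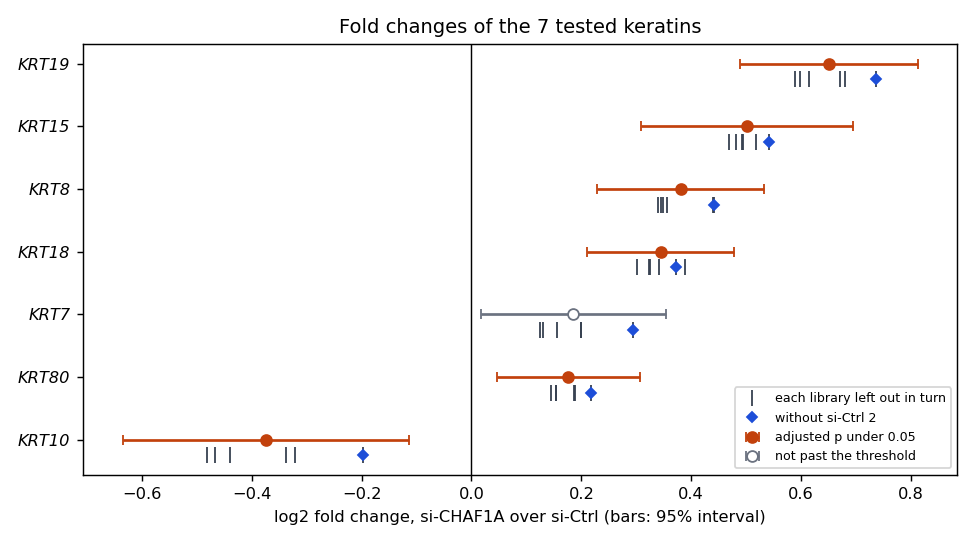
Log2 fold change of the 7 tested keratins, si-CHAF1A over si-Ctrl, with the 95% interval as a bar and, under it, a tick for each fit with 1 library left out (diamond: without si-Ctrl 2). KRT19 lies highest at 0.65 and KRT10 lowest at -0.37, and leaving out si-Ctrl 2 moves KRT7 to 0.29.

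To compare levels between genes, CPM was divided by the length of the main transcript. In si-CHAF1A the order was KRT8 (1322 ± 95 CPM per kb), KRT19 (806 ± 48.1), KRT18 (678 ± 40.1), KRT7 (622 ± 21), KRT80 (137 ± 3.48), KRT10 (15.5 ± 1.68), KRT15 (10.3 ± 0.210) and KRT17 (0.381 ± 0.199), each as mean ± SD of 3 libraries. KRT18 and KRT7 overlapped, and the other neighbours did not. In si-Ctrl the order was KRT8 (1015 ± 80.2 CPM per kb), KRT7 (547 ± 72.1), KRT18 (534 ± 21), KRT19 (514 ± 56.1), KRT80 (122 ± 6.73), KRT10 (20.05 ± 4.12), KRT15 (7.23 ± 0.385) and KRT17 (0.0222 ± 0.0384), also in CPM per kb. There KRT7, KRT18 and KRT19 overlapped with each other below KRT8. In the knockdown KRT19 lay above KRT18 and KRT7 in every library. The order depends on the length used: dividing by all annotated exons (6881 bp for KRT8, 2336 bp for KRT19) put KRT19 first in both groups, at 479.8 ± 28.6 CPM per kb in si-CHAF1A and 306 ± 33.4 CPM per kb in si-Ctrl, where it overlapped with KRT8. By that length KRT19 lay above KRT18 and KRT7 in si-Ctrl as well, with no overlap.

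Summed by filament type, the type I side stood higher by more, but not in each of its genes. The summed type I keratins stood at 1569, 1435 and 1526 CPM per kb in si-CHAF1A 1, 2 and 3, against 1017, 1168 and 1039 CPM per kb in si-Ctrl 1, 2 and 3, a ratio of means of 1.41. For type II the sums were 2154, 1958 and 2132 CPM per kb in si-CHAF1A 1, 2 and 3, against 1586, 1867 and 1598 CPM per kb in si-Ctrl 1, 2 and 3, a ratio of 1.24. Type II over type I was therefore 1.38 ± 0.0167 in si-CHAF1A and 1.57 ± 0.0307 in si-Ctrl (SD, n = 3 each), and the libraries of the groups did not overlap. These sums were not tested, and most of each came from KRT8, KRT19, KRT18 and KRT7. They use main transcript lengths. By all annotated exons KRT19 stood above KRT8 in si-CHAF1A (480 against 337 CPM per kb), so the ratio of the types depends on the length used. Among type I genes KRT19 averaged 806 CPM per kb in si-CHAF1A and 514 in si-Ctrl, and KRT18 678 in si-CHAF1A and 534 in si-Ctrl. The log2 fold change of KRT18 (0.34) was no larger than that of type II KRT8 (0.38), and KRT10 was lower (-0.37). Type I KRT15 was higher by more than KRT8 (0.50). At 10.3 CPM per kb in si-CHAF1A and 7.23 in si-Ctrl, it added little to the sum. Of KRT19 and KRT18, which made up most of the type I sum, KRT19 had the larger log2 fold change (0.65).

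Together the 9 genes took 0.619% ± 0.0283 of all counts in si-CHAF1A and 0.465% ± 0.0252 in si-Ctrl (SD, n = 3 each). Within the keratin counts, KRT19 held 18.4% ± 0.734 in si-CHAF1A and 15.04% ± 0.376 in si-Ctrl, and KRT7 held 18.0% ± 0.649 in si-CHAF1A and 20.2% ± 0.903 in si-Ctrl. KRT8 held 38.1% ± 1.17 in si-CHAF1A and 37.6% ± 0.269 in si-Ctrl, and these ranges overlapped. In bulk RNA a larger share of cells with a keratin and more of its RNA in each cell cannot be told apart.

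**Figure D3:**
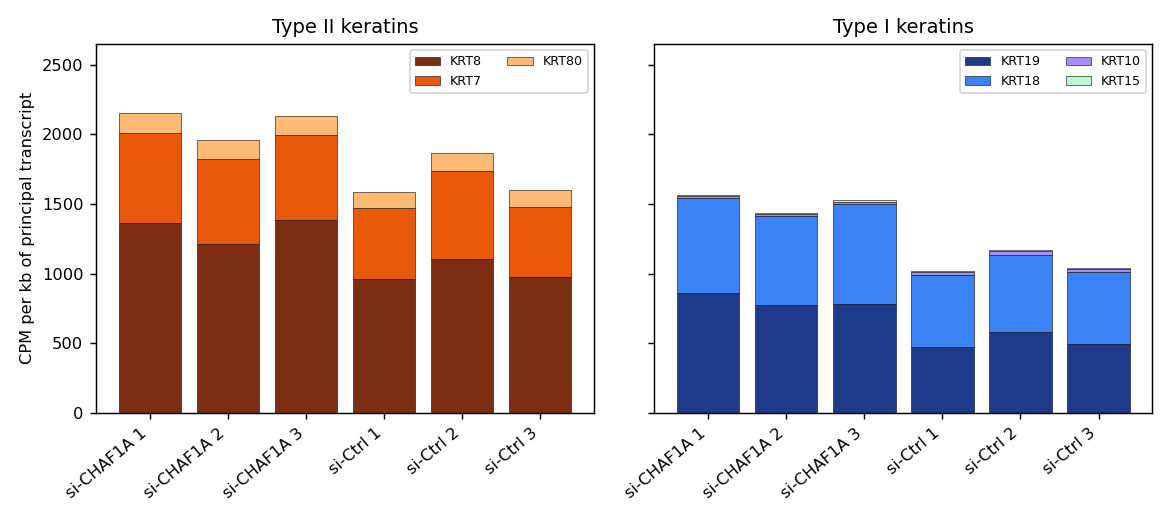
Summed level of type II keratins (left panel) and type I keratins (right panel) in each library, in CPM per kb of the main transcript, stacked by gene; KRT17 and KRT23 are too low to draw. Type I bars reach 1435 to 1569 in si-CHAF1A and 1017 to 1168 in si-Ctrl, with KRT19 as the larger part in the knockdown libraries.

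The other 46 keratins listed were mostly silent. No count was found for 18 of them, 1 to 9 counts for 15 and at least 10 counts over the 6 libraries for 13. Of the 4 that could be tested, KRT86, a hair keratin, was higher, with 2.97, 2.01 and 2.18 CPM in si-CHAF1A 1, 2 and 3, against 1.60, 1.51 and 1.09 CPM in si-Ctrl 1, 2 and 3. The groups did not overlap, which held for 48.2% of all genes tested. KRT86 had a log2 fold change of 0.77 (adjusted p = 0.0377, edgeR's quasi-likelihood test). This 1 call among 4 genes stands against 37.8% of all genes tested. It did not pass in DESeq2 (adjusted p = 0.137), in edgeR without the filter on low counts (0.0603), or without si-CHAF1A 1 (0.176), si-CHAF1A 3 (0.0634) or si-Ctrl 3 (0.134). KRT81 (0.29, adjusted p = 0.154), KRT16 (0.76, adjusted p = 0.150) and KRT32 (0.42, adjusted p = 0.501) did not pass edgeR's test.

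Among the 9 that had at least 10 counts but were too sparse for the test, KRT6B and KRT13 leaned the same way as KRT17. KRT6B, a keratin of injured and hyperproliferative epidermis, had 14, 19 and 10 counts in si-CHAF1A 1, 2 and 3, against 1, 3 and 4 counts in si-Ctrl 1, 2 and 3, a scaled ratio of 5.46 (exact 95% interval 2.54 to 13.4, counting error only). KRT13, a keratin of the oesophageal and oral lining, had 4, 3 and 13 counts in si-CHAF1A 1, 2 and 3, against 1, 1 and 0 counts in si-Ctrl 1, 2 and 3. In neither gene did the groups overlap, and both passed when edgeR's quasi-likelihood test was run without the filter (adjusted p = 0.00129 for KRT6B and 0.0192 for KRT13). In that fit 17.2% of 35659 genes passed, and its values are not comparable with those of the main fit. DESeq2 gave an adjusted p of 0.016 for KRT6B and none for KRT13. KRT2, an upper-epidermal keratin, leaned the other way, with 4 counts in si-CHAF1A and 20 in si-Ctrl. Its scaled ratio was 0.203 (exact 95% interval 0.05 to 0.606, counting error only), and its groups overlapped. KRT75 had 10 counts in si-CHAF1A and 2 in si-Ctrl, and KRT222 had 26 counts in si-CHAF1A and 17 in si-Ctrl. KRT3 (6 counts in si-CHAF1A and 12 in si-Ctrl), KRT5 (6 and 9), KRT9 (10 and 14) and KRT79 (11 and 18) also leaned lower. The exact 95% intervals of their scaled ratios all included 1. KRT5 and KRT14, the defining pair of basal stratified cells, had 15 counts and 1 count in all.

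The proteins that anchor keratin filaments to desmosomes and hemidesmosomes, or crosslink them, moved in both directions. Of 24 listed genes 19 were tested, 7 were higher and 2 lower, and the median log2 fold change of the 19 was 0.11, beside 18.5% higher and 19.3% lower over all genes. In DESeq2, where 27.9% of all genes passed, the split was 6 higher and 5 lower. In edgeR without the filter, where 17.2% of all genes passed, the split was 6 higher and 4 lower. EPPK1 (epiplakin, which binds and bundles keratin filaments) had 17.1, 19.0 and 18.4 CPM in si-CHAF1A 1, 2 and 3, against 1.60, 2.57 and 1.60 CPM in si-Ctrl 1, 2 and 3. The groups lay far apart, with a log2 fold change of 3.21 (SE 0.17, adjusted p = 8.89e-10, edgeR's quasi-likelihood test).

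PPL (periplakin, a linker of keratins to desmosomes) averaged 99.7 ± 2.18 CPM in si-CHAF1A and 47.1 ± 6.93 CPM in si-Ctrl (log2 fold change 1.08). PERP, a desmosomal membrane protein and p53 target, averaged 416 ± 13.2 CPM in si-CHAF1A and 205 ± 13.2 CPM in si-Ctrl (1.02). COL17A1, the transmembrane collagen of hemidesmosomes, averaged 47.2 ± 1.33 CPM in si-CHAF1A and 25.5 ± 2.70 CPM in si-Ctrl (0.88). All 3 passed edgeR's quasi-likelihood test with an adjusted p of at most 1.62e-06. DSP (desmoplakin), chosen for mention after its value was seen because it is the protein that ties keratins to the desmosome, was lower instead, at 227 ± 1.28 CPM in si-CHAF1A and 295 ± 19.9 CPM in si-Ctrl (-0.38, adjusted p = 0.00026). PLEC (plectin), likewise chosen after its value was seen, did not pass (-0.23, adjusted p = 0.075).

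Intermediate filament genes outside the keratin family also parted. Of 17 listed, 11 were tested, 4 were higher and 2 lower, with a median of 0.21, beside 18.5% higher and 19.3% lower over all genes. NES (nestin, a filament protein of progenitor cells) averaged 46.0 ± 3.20 CPM in si-CHAF1A and 12.2 ± 1.72 CPM in si-Ctrl (log2 fold change 1.905, adjusted p = 2.43e-09, edgeR's quasi-likelihood test). GFAP, known from astrocytes and hepatic stellate cells, was higher at a low level (7.09 ± 1.31 CPM in si-CHAF1A and 3.46 ± 0.836 CPM in si-Ctrl, 1.03). VIM (vimentin, the mesenchymal filament protein) was lower, at 713 ± 11.9 CPM in si-CHAF1A and 915 ± 57.4 CPM in si-Ctrl (-0.36, adjusted p = 0.000285). LMNB1 (lamin B1, a filament of the nuclear lamina) was also lower, at 67.2 ± 4.83 CPM in si-CHAF1A and 125 ± 2.12 CPM in si-Ctrl (-0.89). So within the same libraries the simple keratins KRT8 and KRT18 were higher, while other filament genes went both ways, with vimentin lower and nestin higher.

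Of 28 genes of squamous differentiation and the cornified envelope only 6 had enough counts for the test. FLG (filaggrin, which packs keratin filaments in the cornified layer) averaged 38.2 ± 3.48 CPM in si-CHAF1A and 26.8 ± 2.84 CPM in si-Ctrl (log2 fold change 0.51, adjusted p = 0.000756, edgeR's quasi-likelihood test). Its groups did not overlap. TP63, the transcription factor of basal squamous cells, had 11, 11 and 18 counts in si-CHAF1A 1, 2 and 3, against 2, 1 and 0 counts in si-Ctrl 1, 2 and 3. PI3 (elafin, an inhibitor of elastase crosslinked into the cornified envelope) had 21, 14 and 18 counts in si-CHAF1A 1, 2 and 3, against 5, 9 and 4 counts in si-Ctrl 1, 2 and 3. TP63 and PI3 reached the test only through the si-CHAF1A libraries, where they were high, so their calls are no independent evidence of a change, and both rest on few reads. The other 3 genes did not pass. Of all genes tested 37.8% passed.

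Among transcription factors of epithelial and biliary identity, 20 of 24 were tested, 7 were higher and 4 lower, with a median of 0.23. Over all genes tested 18.5% were higher and 19.3% lower. OVOL2, among those higher, had 22, 19 and 15 counts in si-CHAF1A 1, 2 and 3, against 4, 11 and 9 in si-Ctrl 1, 2 and 3. It reached the test only through the si-CHAF1A libraries, so its call is no independent evidence of a change. ELF3, an epithelial ETS factor, averaged 136 ± 10.8 CPM in si-CHAF1A and 88.5 ± 4.72 CPM in si-Ctrl (log2 fold change 0.62). CEBPB averaged 79.2 ± 2.64 CPM in si-CHAF1A and 56.9 ± 0.998 CPM in si-Ctrl (0.48). GRHL3, a grainyhead factor of the epidermal barrier, averaged 6.05 ± 0.407 CPM in si-CHAF1A and 2.56 ± 0.300 CPM in si-Ctrl (1.24). KLF4, an epithelial differentiation factor, was lower, at 23.7 ± 0.731 CPM in si-CHAF1A and 36.9 ± 3.67 CPM in si-Ctrl (-0.64). These 4 passed edgeR's quasi-likelihood test with an adjusted p of at most 5.90e-05. SOX9, a biliary factor named after its value was seen, was lower (-0.26, adjusted p = 0.00675). Without si-Ctrl 2, where 43.8% of all genes passed, the calls were 8 higher and 4 lower for the desmosome and cytolinker list, 5 higher and 2 lower for other intermediate filament genes, and 6 higher and 6 lower for these transcription factors.

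**Figure D4:**
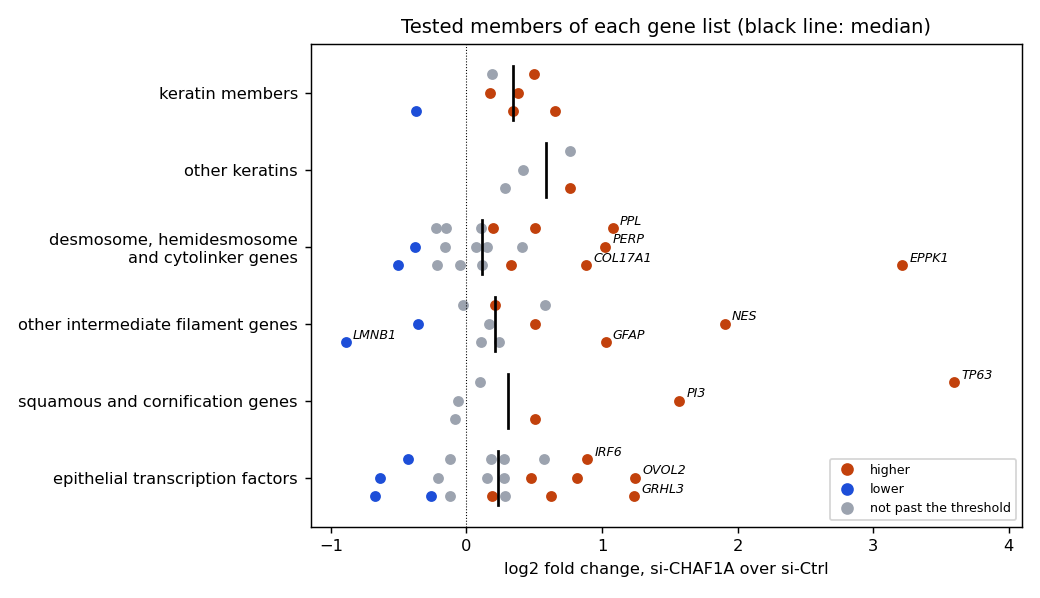
Log2 fold change, si-CHAF1A over si-Ctrl, of every tested gene in the keratin group and in 5 related gene lists, 1 point per gene, with the median of each list as a black line. The keratin median lies at 0.34, the desmosome and cytolinker median at 0.11, and EPPK1 (3.21) and TP63 (3.60) lie furthest to the right.

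The 12 bile duct markers other than KRT7 and KRT19 divided, with 6 higher, 5 lower and 1 that did not pass. Over all genes tested 18.5% were higher and 19.3% lower. The median log2 fold change of the 12 was 0.465, but the calls went both ways. CFTR, among those higher, had 16, 15 and 20 counts in si-CHAF1A 1, 2 and 3, against 2, 3 and 6 in si-Ctrl 1, 2 and 3. It reached the test only through the si-CHAF1A libraries, so its call is no independent evidence of a change. Summed over these 12, the level was 929 to 1007 CPM in si-CHAF1A and 917 to 949 CPM in si-Ctrl, which overlapped. With KRT7 and KRT19 included it was 3074 to 3319 CPM in si-CHAF1A and 2462 to 2857 CPM in si-Ctrl. Markers of other cell types were low but partly moved with the knockdown, and their calls stand beside the same shares of all genes. Hepatocyte markers (5 of 12 tested, 3 higher) summed to 99.7 to 120 CPM in si-CHAF1A and 74.0 to 79.0 CPM in si-Ctrl. Those higher were HNF4A, SERPINA1 and CPS1, while ALB had 24 counts in all libraries together. Fibroblast markers (4 of 8 tested, with PDGFRB and ACTA2 higher) summed to 52.2, 33.5 and 35.8 CPM in si-CHAF1A 1, 2 and 3, against 16.7, 19.4 and 16.3 CPM in si-Ctrl 1, 2 and 3. The high value of si-CHAF1A 1 came with 393 counts of COL1A1, against 196 and 211 in si-CHAF1A 2 and 3, and 92 counts of COL1A2, against 3 and 1 there. Endothelial markers (2 of 6 tested, 1 higher) summed to 7.62 to 9.19 CPM in si-CHAF1A and 2.52 to 4.21 CPM in si-Ctrl. Squamous markers, of which 1 of 8 was tested (TP63, only through its si-CHAF1A libraries), summed to 1.01 to 1.96 CPM in si-CHAF1A and 0.229 to 0.447 CPM in si-Ctrl, with SPRR1B at 0. Immune markers (0 of 7 tested) summed to 0.672 to 0.890 CPM in si-CHAF1A and 1.02 to 1.32 CPM in si-Ctrl, with HLA-DRA at 0. Their part in the keratin results was not tested.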

How the data were processed

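RNA from 6 cultures was sequenced with 150 bp reads. The values are whole-number read counts per gene, deposited by the authors as 1 table without normalisation. Per the submitters' processing notes, fastp 0.20.1, HISAT2 2.1.0, SAMtools 1.9, featureCounts 2.0.1, StringTie 2.1.4 and build hg38 were used. Not given in the sources used here are their settings, the annotation release, the strand setting of the counting and what was done with multiply mapped reads, although strand-specific library preparation was planned per the labels. The table's column names NC and si with numbers were read as the control and knockdown libraries of the same number. No other column was present (0), and no row lacked a gene (0).

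Of 63186 Ensembl identifiers, 62665 received a symbol and 58173 matched GENCODE 29 (GRCh38), the source of positions, exon lengths and coding sequences. The main transcript of a gene is its APPRIS principal transcript with a CCDS entry, the shortest where several qualified. The robust quasi-likelihood test of edgeR 4.0.16 (R 4.3.3, TMM scaling, filterByExpr at 10 counts per library and 15 in total, no covariate) was fitted over 15911 genes, with Benjamini-Hochberg adjustment. Genes called higher or lower had an adjusted p under 0.05. SE was derived from the log2 fold change and the F statistic of the test. CPM and CPM per kb were computed here from the deposited counts. Count ratios of sparse genes have exact 95% intervals, and 3 counts was taken as the limit that 0 allows. The script was tested on simulated data.

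The 9 members and the gene lists were chosen with earlier results of these data known. Genes named are the 9 keratins, CHAF1A, other keratins with at least 10 counts, and, from each list, the called genes with the smallest adjusted p (at most 4). Further genes (KRT14, KRT7-AS, DSP, PLEC, SOX9, OVOL2, CFTR and single marker genes of other cell types) were named after their values were seen. Alternatives were other scalings, filters, DESeq2 1.42.0, limma-voom (limma 3.58.1), a replicate block, each library left out and keratin pseudogene counts added to their parents. Samples of a group are biological replicates per the labels, which do not say how they were made, so a p-value reflects only the spread among these libraries.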

Additional observations from a re-analysis of the deposited data

How the results depend on the processing

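Among 119 refitted log2 fold changes of the 7 keratins and CHAF1A (other scalings, filters and tools, a replicate block, each library left out, pseudogene counts added), 107 stayed on their side of the threshold and none (0) changed sign. Among 99 recomputed counts of calls, 94 stayed within 1.5 times the reported count. KRT8, KRT18, KRT19 and KRT15 passed in every setting tried. KRT7 passed with library totals alone (log2 fold change 0.24, adjusted p 0.010), with upper-quartile scaling (0.23) and without si-Ctrl 2, and ranged from 0.12 to 0.29 over the leave-outs. Library totals moved the median of all genes by 0.05 on the log2 scale and changed the calls to 3440 higher and 2463 lower, against 2944 and 3064 with TMM. KRT80 was lost without the filter on low counts (0.17, adjusted p 0.10) and with a replicate block (0.18, adjusted p 0.080), and ranged from 0.15 to 0.22 over the leave-outs. KRT10 ranged from -0.48 to -0.20. Calls among other keratins were 1 (KRT86), with 2 when low counts were kept (KRT6B and KRT13, not KRT86), 1 in DESeq2 (KRT6B, not KRT86) and 0 to 3 over the leave-outs. Of all genes tested, 37.8% passed in the main fit, 17.2% with low counts kept, 27.9% in DESeq2 and 28.6% to 43.8% over the leave-outs. Squamous genes gave 1 call in place of 3 when at least 1 CPM in 3 libraries was asked for, since fewer genes were then tested. For the rest the cause was not tested. The 9 keratins gave 4 to 7 calls, and all genes 4707 to 7228. Library numbers did not pair the samples (correlation of same-numbered deviations -0.09, -0.06 and -0.003), and the block fit gave 2675 higher and 2723 lower genes. The shared number is not known to mark a day or batch. Depth limits KRT17, KRT6B, KRT13 and TP63, which rest on few reads.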

Other observations

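Processed pseudogenes of the simple keratins carried few reads. The 51 KRT8 pseudogene rows together held 0.395% of the counts of KRT8, and the 68 KRT18 pseudogene rows 0.242% of those of KRT18. The KRT8 pseudogenes summed to 8.36, 6.88 and 6.38 CPM in si-CHAF1A 1, 2 and 3, against 7.28, 13.3 and 5.84 CPM in si-Ctrl 1, 2 and 3, and the KRT18 pseudogenes to 2.61, 2.06 and 1.46 CPM in si-CHAF1A 1, 2 and 3, against 1.15, 3.23 and 1.77 CPM in si-Ctrl 1, 2 and 3. In both sums the groups overlapped and si-Ctrl 2 was the highest library. KRT7-AS, which shares 282 bp with the exons of KRT7 on the opposite strand, averaged 19.6 ± 1.99 CPM in si-CHAF1A and 15.7 ± 1.60 CPM in si-Ctrl (SD, n = 3 each; log2 fold change 0.32, adjusted p = 0.0313, edgeR's quasi-likelihood test). It did not pass in DESeq2 (adjusted p = 0.0878).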
